A study of Mus musculus with 16 samples.

Results

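The transcripts described here encode 9 receptors for the transmitters that sympathetic nerves release: Adra1a, Adra1b, Adra1d, Adra2a, Adra2b, Adra2c, Adrb1, Adrb3 and Npy1r. Each was taken as the single protein-coding row that carries its symbol, 9 of the 56941 genes listed in each of 2 tables of normalized counts. One table holds pancreatic stellate cells (PSCs) and the other holds superior cervical ganglia (SCGs), and the 2 were normalized apart from each other. PSCs were the immortalized mouse line mPSC1, grown either alone (PSC, n = 3) or on inserts over wells holding ganglion explants (PSC+SCG, n = 3). Explants of SCGs from mouse pups of postnatal day 1 to 4, in medium with nerve growth factor, were grown alone (SCG, n = 3), with PSCs on the insert (SCG+PSC, n = 4) or with NIH 3T3 fibroblasts, called mouse embryonic fibroblasts (SCG+MEF, n = 3). Cocultures ran for 70 hours. mPSC1 is a single immortalized line, and an explant is a piece of whole ganglion. Nothing ties a library to a separate mouse or culture, so p-values measure the spread between libraries, which may be technical.

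Noradrenaline acts on alpha-1, alpha-2 and beta adrenergic receptors, which are all G protein-coupled receptors. Alpha-1 receptors couple to Gq and phospholipase C, alpha-2 receptors couple to Gi and lower cyclic AMP, and beta receptors couple to Gs and raise it. Sympathetic neurons carry alpha-2 receptors on their own terminals, where they restrain further release. Neuropeptide Y is released with noradrenaline, and its Y1 receptor, the product of Npy1r, couples to Gi and is known from vascular smooth muscle and other targets of sympathetic nerves. The comparisons ask which of these receptors each side of the culture expresses and whether growing the sides together changes them.

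Total reads on genes, recovered from the normalized values, ranged from 31900689 to 41632381 in 5 of the 6 PSC libraries and from 32013901 to 39197230 in 9 of the 10 ganglion libraries. The labels were checked against markers. Fibroblast and stellate cell markers were above a mean normalized count of 10 for all 10 genes in every group, ganglia included. The 15 sympathetic neuron markers summed to 207250 to 411717 normalized counts in the ganglion libraries and to 1844 to 2886 in the PSC libraries, where Tubb3 and Uchl1 held most of the sum. Glial, endothelial and macrophage markers were also all above 10 in the ganglia, so the explants are mixed tissue. In bulk RNA, fewer cells of a type and less RNA per cell cannot be told apart.

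PSCs and ganglia carried largely different receptors. In PSCs grown alone, 3 transcripts made up nearly all of the summed level of the 9: the alpha-1 receptors Adra1b and Adra1d, and Npy1r. In SCGs grown alone, the alpha-2 receptor Adra2a led by a wide margin. Levels that compare genes are given in TPM, here the normalized count per kilobase of exon, scaled to the same total in every library. Adra1b was at 19.7 TPM (range 16.2 to 21.6, n = 3) in PSC, Npy1r at 18.5 (14.8 to 23.6) and Adra1d at 16.3 (14.8 to 17.6). The ranges of these neighbours overlap, so their order does not differ beyond the spread. Among 21621 protein-coding genes with a length, these levels lie at percentiles 65.0 to 67.9. After a gap with no overlap came Adra2a at 0.548 TPM (0.281 to 0.900) and Adrb1 at 0.200 TPM (0.178 to 0.237). Adra2b, Adrb3, Adra1a and Adra2c were at 0.0475 TPM or lower.

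In SCG, Adra2a was at 55.0 TPM (33.7 to 78.7, n = 3), at percentile 83.9 of protein-coding genes. Adra2c followed at 6.96 TPM (2.51 to 12.7), Adra1b at 3.71 (1.33 to 5.55) and Adra2b at 3.04 (2.65 to 3.63). The ranges of Adra2c, Adra1b and Adra2b overlap from one to the next. Adra1d at 1.31 TPM (0.721 to 2.46) and Npy1r at 1.22 (1.02 to 1.35) also overlap. Adra1a, Adrb3 and Adrb1 were at 0.0556, 0.0511 and 0.0443 TPM. Adra2a stayed first in SCG+MEF at 57.7 TPM and in SCG+PSC at 50.2 TPM, and Npy1r stood first in PSC+SCG at 35.2 TPM, over a range that overlaps that of Adra1b at 24.2 TPM.

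**Figure D1:**
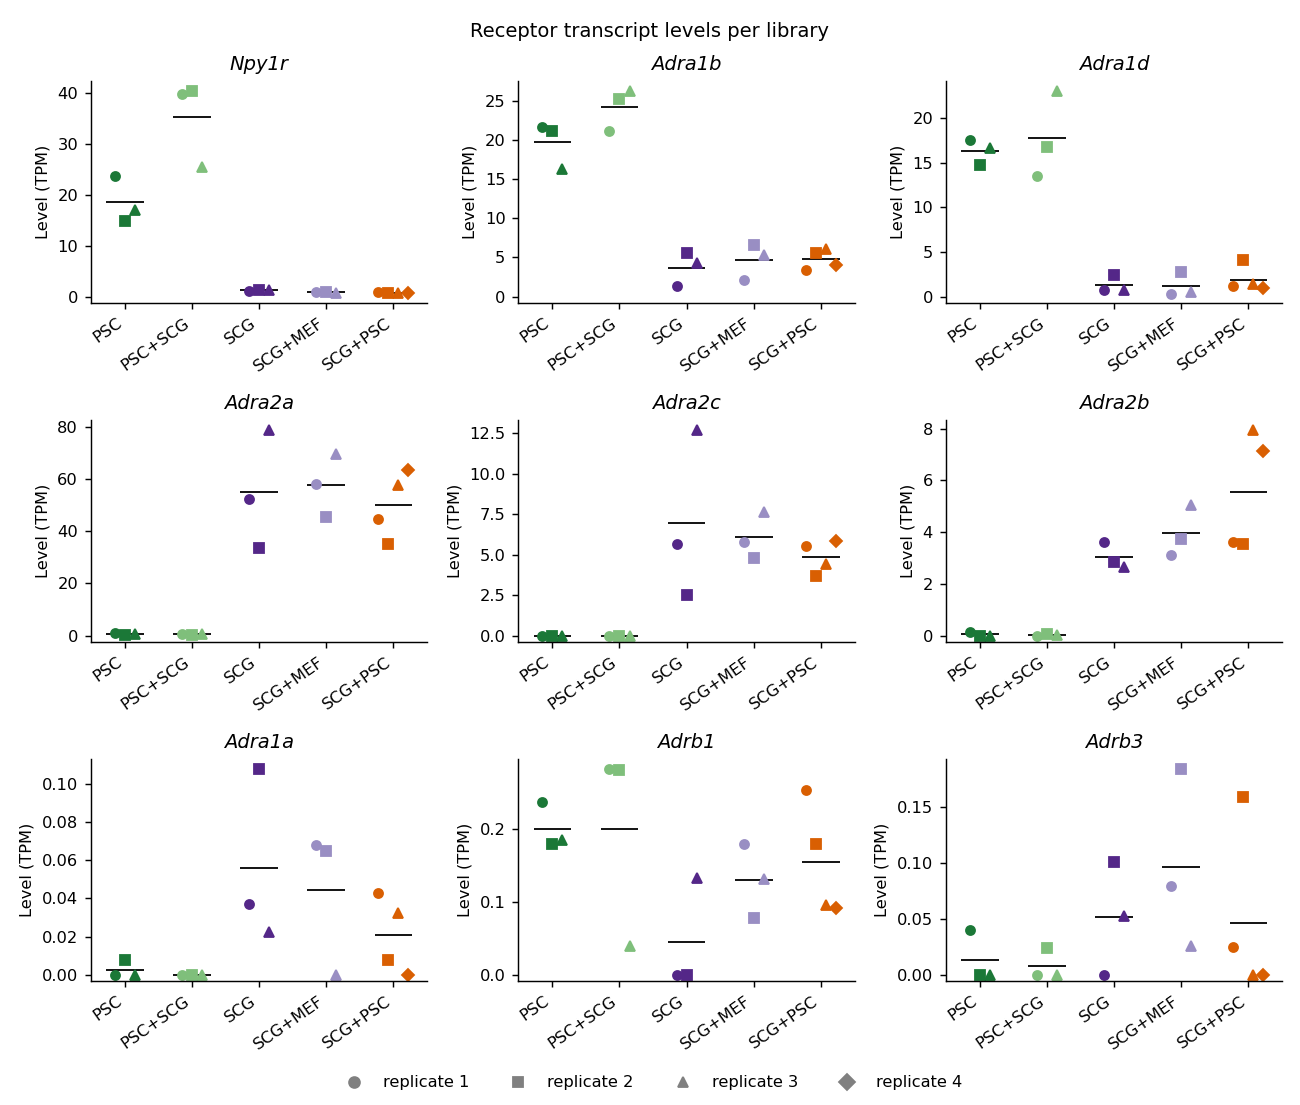
Level of each receptor transcript in TPM (vertical axis, a separate linear scale for each gene) in the 16 libraries by group, with symbols for replicates and a black line at the group mean. Npy1r, Adra1b and Adra1d are high in the 6 PSC libraries and the 3 alpha-2 genes in the 10 ganglion libraries; Adra1a, Adrb1 and Adrb3 reach at most 0.281 TPM.

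Promoter sequences are shown for 3 of the receptors that set the cell types apart, Npy1r on the PSC side and Adra2a and Adra2c on the ganglion side. Each is the 250 bases before the annotated start in RefSeq (GRCm38.p6), 5′ to 3′ on the gene's strand, and the start lies in a GENCODE transcript of the same gene. RefSeq windows were found for 6 of the 9 members. The letters searched on both strands were TGACG, the half-site of the cyclic AMP response element (CRE), GGGCGG, the GC box, and TATAAA, the TATA box, and matches are in capitals.
Adra2a, chr19:54045009-54045258, plus strand: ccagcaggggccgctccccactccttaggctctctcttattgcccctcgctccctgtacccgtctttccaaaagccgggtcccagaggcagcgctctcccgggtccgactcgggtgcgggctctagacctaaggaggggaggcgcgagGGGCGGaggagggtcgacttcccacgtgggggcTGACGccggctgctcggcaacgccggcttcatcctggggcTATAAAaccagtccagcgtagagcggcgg
Adra2c, chr5:35278316-35278565, plus strand: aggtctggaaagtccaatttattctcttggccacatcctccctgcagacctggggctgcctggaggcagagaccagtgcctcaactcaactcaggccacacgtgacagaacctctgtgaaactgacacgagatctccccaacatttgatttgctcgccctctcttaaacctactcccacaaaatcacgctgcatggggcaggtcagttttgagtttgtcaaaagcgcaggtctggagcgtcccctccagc
Npy1r, chr8:66697172-66697421, plus strand: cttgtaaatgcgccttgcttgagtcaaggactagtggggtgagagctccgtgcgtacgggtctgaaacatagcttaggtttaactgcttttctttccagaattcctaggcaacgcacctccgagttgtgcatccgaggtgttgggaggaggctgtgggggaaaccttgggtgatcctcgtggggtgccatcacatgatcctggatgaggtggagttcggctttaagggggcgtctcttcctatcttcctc

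The Adra2a window holds 1 match to each of the 3 motifs, at 102 to 97 bases before the start for the GC box, 69 to 65 for the CRE half-site and 29 to 24 for the TATA box. The matches do not overlap each other. Of all 32851 RefSeq windows of this length, 17.8% hold TGACG, 32.7% hold GGGCGG and 12.4% hold TATAAA on either strand. The windows of Adra2c and Npy1r hold none of the 3. The Adra2a window has 22 CpG dinucleotides, the Npy1r window 10 and the Adra2c window 6, beside a median of 6 over all windows. A match describes letters in the window and not a bound site.

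By class, alpha-1 transcripts made up 65.4% ± 4.57 (SD, n = 3) of the summed TPM of the 9 receptors in PSC and Npy1r 33.2% ± 4.0. Alpha-2 transcripts made up 1.03% ± 0.546 there, and Adrb1 and Adrb3 together 0.382% ± 0.0439. In SCG, alpha-2 transcripts made up 89.7% ± 8.05, alpha-1 transcripts 8.31% ± 7.32 and Npy1r 1.85% ± 0.677. The alpha-2 share stayed close in the cocultured ganglia, at 90.2% ± 5.82 in SCG+MEF (n = 3) and 88.1% ± 5.77 in SCG+PSC (n = 4). In PSC+SCG, the Npy1r share was 45.0% ± 9.96 and the alpha-1 share 53.9% ± 10.1, with ranges that overlap those of PSC for both.

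**Figure D2:**
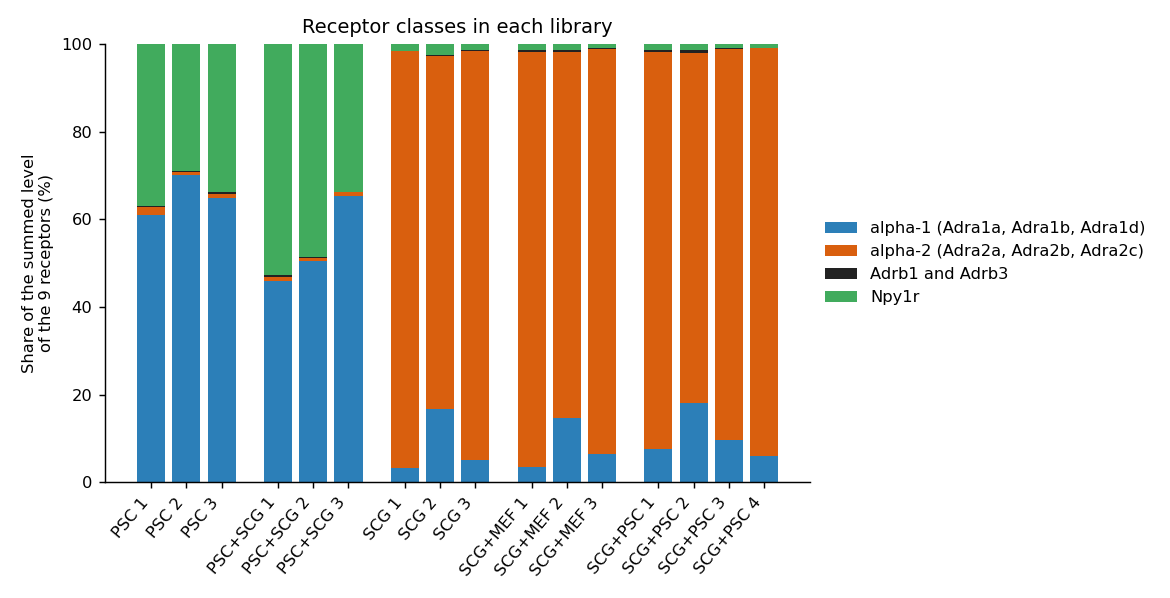
Share of the summed TPM of the 9 receptors (vertical axis, percent) held by each class, with 1 bar for each of the 16 libraries. Alpha-1 genes and Npy1r fill the PSC bars, and alpha-2 genes hold 79.7% to 95.2% of every ganglion bar.

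Set side by side without a test, since the tables were normalized separately, Npy1r was 15.2-fold, Adra1d 12.4-fold and Adra1b 5.30-fold higher by mean TPM in PSC than in SCG. Adra2a was 100.3-fold and Adra2b 64.0-fold higher in SCG. Adra2c was listed at 0 in all 3 PSC libraries and held 482 reads over the 3 SCG libraries, so it was at least 184-fold higher in SCG when 3 reads over the PSC group are taken as the limit that a count of 0 allows. The libraries of PSC and SCG did not overlap for these 6 genes, nor for Adra1a and Adrb1, which rest on few reads. The share of all genes without overlap between PSC and SCG was not computed, so this separation cannot be read as particular to the receptors. Adrb1 rests on 16 reads over the PSC group and 3 over the SCG group, a 4.51-fold ratio. The 95% counting limits of the 3 SCG reads alone put it between 1.54 and 21.9. These limits take the 16 PSC reads as exact, so they are too narrow for the ratio. Adra1a had 1 read over the PSC group and 23 over the SCG group. Adrb3 had 2 and 6 reads, and its libraries overlapped. Intervals and limits cover counting error only.

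Npy1r was the 1 member that was higher in PSCs grown with ganglia by any of the tests run. Its normalized counts in PSC were 1489, 949 and 1122 in replicates 1, 2 and 3, and in PSC+SCG they were 2468, 2507 and 1738. Every PSC+SCG library lies above every PSC library, and each same-numbered pair rose, by 0.73, 1.40 and 0.63 on the log2(normalized count + 1) scale used for all differences. Groups did not overlap for 1 of the 9 members, beside 5.6% of the 21273 genes tested. The mean fold was 1.89 (log2 fold change 0.92, SE 0.206). In limma across all genes without a block, this gave an unadjusted p of 0.00175 and an adjusted p of 0.9999, so Npy1r was not called. Calls needed a Benjamini-Hochberg adjusted p of 0.05 or lower together with a change of 0.5 or more on the log2 scale. Without the block, limma called 0 of 21273 genes (0.0%) in this comparison, with 408 at an unadjusted p under 0.05.

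With the replicate number as a block, the same fold had SE 0.127 and an adjusted limma p of 5.7e-04, and Npy1r was called. It was then the 1 called of the 5 members tested, beside 98 of 21273 genes (0.461%). Under the block, leaving out either library of a pair removes the whole pair from the difference, so these fits give 3 distinct estimates. They ran from 0.68 to 1.06 on the log2 scale, the limma adjusted p reached 0.0385 at most, and Npy1r was called in each. Npy1r was taken up with its earlier result in these libraries known, so its direction is not independent evidence. The 15 sympathetic neuron markers moved with it: their sum was 2556, 2194 and 1844 normalized counts in PSC and 2765, 2886 and 2312 in PSC+SCG, higher in each of the 3 pairs. Of these markers 9 were tested and 0 were called by limma with or without the block, 1 of them at an unadjusted p under 0.05 in each fit, and their median log2 fold change was 0.34. Th, the rate-limiting enzyme of catecholamine synthesis, was at 0 in the 3 PSC+SCG libraries. The part of neuronal RNA in the Npy1r difference was not tested. PSC+SCG replicate 3, the lowest of its group for Npy1r, had the highest sum of pericyte and smooth muscle markers of the 6, at 77632 normalized counts against 28806 in replicate 2, and the part of this in the result was not tested.

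In ganglia, Npy1r was at a level far below that of PSCs. SCG libraries had normalized counts of 58.7, 71.3 and 78.9, SCG+MEF libraries 54.7, 48.2 and 46.6, and SCG+PSC libraries 48.9, 43.6, 44.9 and 40.3. Every cocultured library lies below every SCG library, in both cocultures. SCG+PSC replicate 4 was left out of the fits. The log2 fold change was -0.59 (SE 0.233) in SCG+PSC against SCG, with an unadjusted limma p of 0.0303 and adjusted p = 1, and -0.47 (SE 0.233) in SCG+MEF against SCG, with an unadjusted p of 0.0721 and adjusted p = 1. With the block, the adjusted limma p values were 0.394 and 0.710. Neither difference was called. The 8 pericyte and smooth muscle markers summed to 46638 to 62480 normalized counts in SCG, 27194 to 51185 in SCG+MEF and 34074 to 53791 in SCG+PSC, and their median log2 fold changes were -0.39 in SCG+PSC against SCG and -0.43 in SCG+MEF against SCG. Limma called 0 of the 8 with or without the block, and the part of these markers in the Npy1r differences was not tested. Both comparisons share the SCG libraries, so the 2 values are not independent. Groups did not overlap for 1 of the 9 members in each of them, beside 7.66% of 23491 genes in SCG+PSC against SCG and 6.63% in SCG+MEF against SCG.

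**Figure D3:**
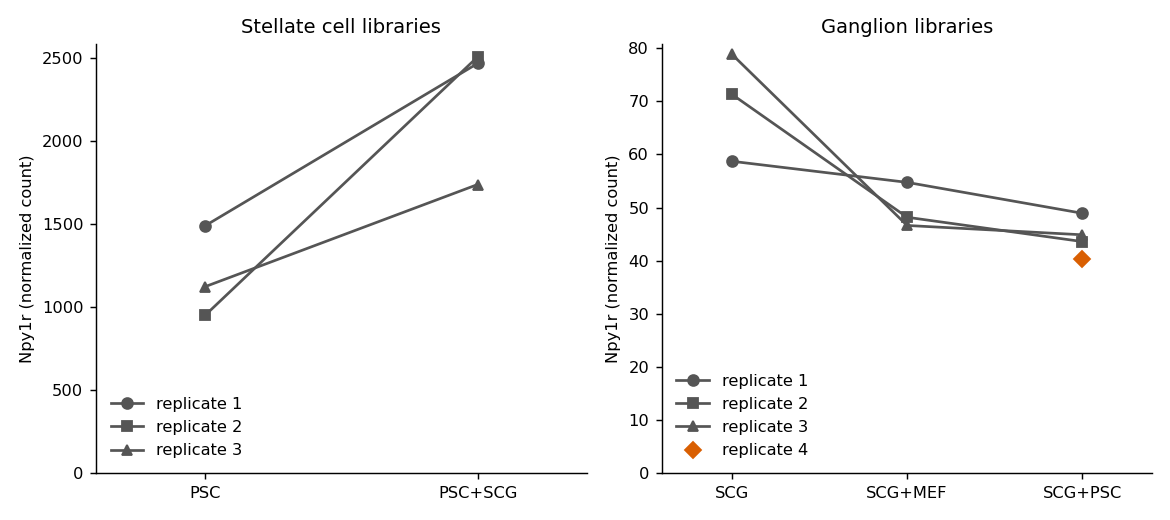
Normalized count of Npy1r (vertical axis, from 0, a separate scale in each panel) in PSC libraries (left) and ganglion libraries (right), with lines joining same-numbered replicates. All 3 lines rise in PSCs, from 949 to 1489 up to 1738 to 2507, and all 3 end lower in SCG+PSC than in SCG.

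The alpha-1 receptors did not pass any test in PSCs. Adra1b had normalized counts of 540, 538 and 424 in PSC and 520, 622 and 711 in PSC+SCG, and the groups overlapped. Its log2 fold change was 0.30, with a 95% interval of -0.10 to 0.70 without the block and of -0.0030 to 0.60 with it (limma adjusted p = 0.605 with the block). Adra1d had 541, 463 and 534 in PSC and 411, 510 and 767 in PSC+SCG. Its log2 fold change was 0.09, with an interval of -0.43 to 0.61, and it turned to -0.16 without PSC+SCG replicate 3. Adra1b and Adra1d were both highest in PSC+SCG replicate 3, the library with the highest pericyte and smooth muscle sum, and the part of those markers in this was not tested. Adra1a, the remaining alpha-1 gene, was at 0 in 5 of 6 PSC libraries and at 1 read in the other.

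Alpha-2 and beta receptors were scarce in PSCs in both conditions. Adra2a had normalized counts of 32.1, 10.2 and 17.3 in PSC and 23.7, 14.8 and 24.5 in PSC+SCG, with a log2 fold change of 0.18 (95% interval -0.95 to 1.31). Adra2c was at 0 in all 6 libraries. In the 5 libraries with recovered reads, a count of 0 allows up to 3 reads of a total of 31900689 to 41632381. Adra2b was at 0 in 3 libraries and at most 4.23 in the rest. Adrb1 was at 4.54 to 5.92 in PSC and at 1.06 to 6.92 in PSC+SCG, and Adrb3 was at most 1.69. The log2 fold change of Adrb1 was -0.26 (95% interval -1.74 to 1.21), and neither Adra2a nor Adrb1 was called by limma with or without the block. Adra1a, Adra2b, Adra2c and Adrb3 fell under the limit of 10 summed over libraries and were not tested. A difference in those genes was not detectable at this depth.

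In ganglia, Adra2a was the leading receptor in every library. SCG libraries had normalized counts of 1711, 1075 and 2602, SCG+MEF libraries 1873, 1466 and 2318, and SCG+PSC libraries 1456, 1132, 1832 and 2001. In each of the 3 groups, replicate 2 was the lowest. SCG+PSC was lower than SCG+MEF in 3 of 3 pairs, with log2 differences of -0.36, -0.37 and -0.34, though the groups overlap. That difference had an adjusted limma p of 1 without the block (SE 0.302) and of 0.188 with it (SE 0.109), with a log2 fold change of -0.36. It was not called. Against SCG, the log2 fold change was -0.22 in SCG+PSC (95% interval with the block -0.46 to 0.018) and 0.14 in SCG+MEF (-0.10 to 0.38).

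The level of Adra2a moved with the summed neuron markers across the 10 ganglion libraries. Replicate 2 had the lowest marker sum in each group, at 207250 in SCG, 284388 in SCG+MEF and 227050 in SCG+PSC. Adra2a ranged 2.42-fold over the 10 libraries and its count per 1000 neuron marker counts ranged 1.45-fold, from 4.35 to 6.32. Adra2c ranged 5.24-fold, and 2.81-fold per 1000 neuron marker counts. The part of neuron content in the differences between groups was not tested.

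**Figure D4:**
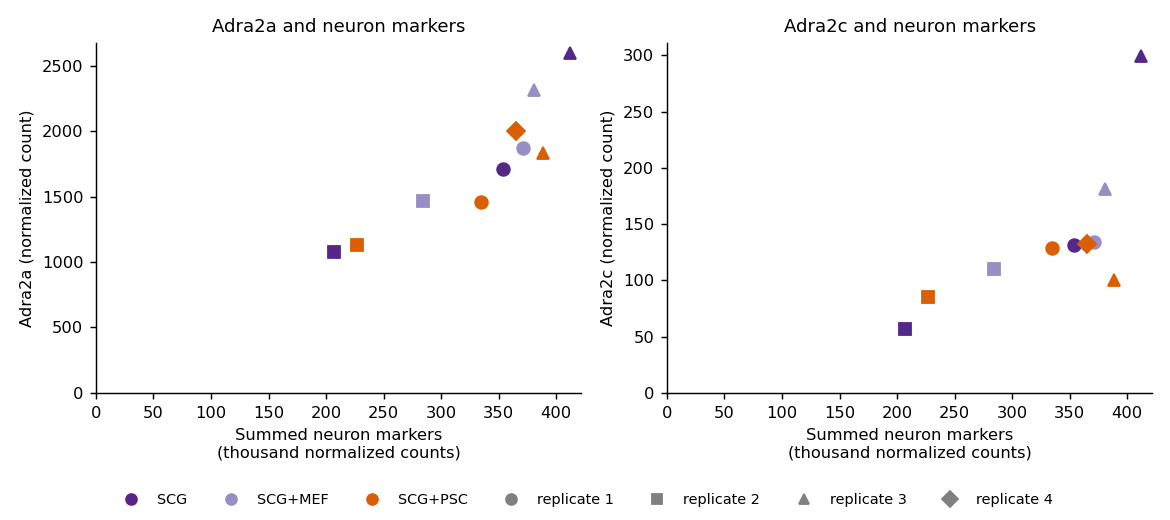
Normalized count of Adra2a (left) and Adra2c (right) against the summed normalized counts of 15 sympathetic neuron markers (horizontal axis, in units of 1000) in the 10 ganglion libraries, coloured by group with symbols for replicates. The replicate 2 libraries of all 3 groups sit at the left, at marker sums of 207250 to 284388, and SCG replicate 3 is highest for both genes.

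Adra2c, the second alpha-2 receptor, had normalized counts of 132, 57.1 and 299 in SCG, 134, 110 and 181 in SCG+MEF and 129, 85.2, 100.4 and 132 in SCG+PSC. SCG replicate 3 lies far above the other libraries. In SCG+PSC against SCG, the log2 fold change was -0.34 (SE 0.488), and it was 0.25 without SCG replicate 3. Adra2b had 98.2, 75.2 and 72.7 in SCG, 83.1, 100.7 and 140 in SCG+MEF and 97.8, 95.3, 209 and 187 in SCG+PSC. It was high in SCG+PSC replicates 3 and 4, while replicates 1 and 2 lay within the SCG range. Its log2 fold change in SCG+PSC against SCG was 0.62 (95% interval with the block 0.032 to 1.20, limma adjusted p = 0.431), and it was not called.

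The alpha-1 receptors of the ganglia differed more between replicate numbers than between groups. Adra1b was lowest in replicate 1 of every group, with 30.4, 123.7 and 98.4 in SCG, 48.7, 148.9 and 124.7 in SCG+MEF and 75.8, 125.7, 135.7 and 88.8 in SCG+PSC. It was higher in SCG+PSC than in SCG in 3 of 3 pairs, with a log2 fold change of 0.59 (95% interval with the block 0.068 to 1.12, limma adjusted p = 0.388). Without SCG replicate 1 and without the block, it was -0.02. Adra1d was highest in replicate 2 of every group, with 20.2, 67.5 and 21.5 in SCG, 9.12, 78.0 and 14.2 in SCG+MEF and 34.5, 113.5, 37.4 and 26.2 in SCG+PSC. Replicate 2 was also the library with the highest sum of fibroblast markers in each ganglion group, at 522208 to 529354, and the part of those markers was not tested.

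Adra1d was higher in SCG+PSC than in SCG in 3 of 3 pairs, by 0.74, 0.74 and 0.77, and higher than in SCG+MEF in 3 of 3 pairs, by 1.81, 0.54 and 1.34. The log2 fold change against SCG+MEF was 1.23, with a 95% interval of 0.52 to 1.94 with the block, an unadjusted p of 0.00269 and an adjusted limma p of 0.117. The adjusted limma p without the block was 1. Neither comparison called it, and the groups overlap in both. Adra1a, Adrb1 and Adrb3 had normalized counts of at most 14.3, 5.76 and 7.01 in any ganglion library. Adrb1 was at 0 in 2 of 3 SCG libraries and above 0 in all 7 cocultured ones, with 3.07 in the remaining SCG library and from 1.75 to 5.76 in the cocultures, and it was not called.

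Of the 9 members, all tested in the ganglia, 0 were called by limma in each of the 3 ganglion comparisons, with or without the block. Unadjusted p values under 0.05 were found for 2 members without the block and 5 with it in SCG+PSC against SCG, for 0 and 0 in SCG+MEF against SCG, and for 0 and 2 in SCG+PSC against SCG+MEF. Over all 23491 genes, the same counts were 943 and 2511, 705 and 1771, and 755 and 2750. edgeR and DESeq2 on recovered reads also called 0 members. Over all 23491 genes, limma without the block called 0.0128% (3 genes) in SCG+PSC against SCG, 0.0128% in SCG+MEF against SCG and 0.0% in SCG+PSC against SCG+MEF. With the block it called 1.33%, 0.162% and 0.788% (313, 38 and 185 genes). The median log2 fold change of the members was -0.03, 0.14 and -0.12 in the 3 comparisons, beside 0.0024, 0.018 and -0.0072 over all genes tested.

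**Figure D5:**
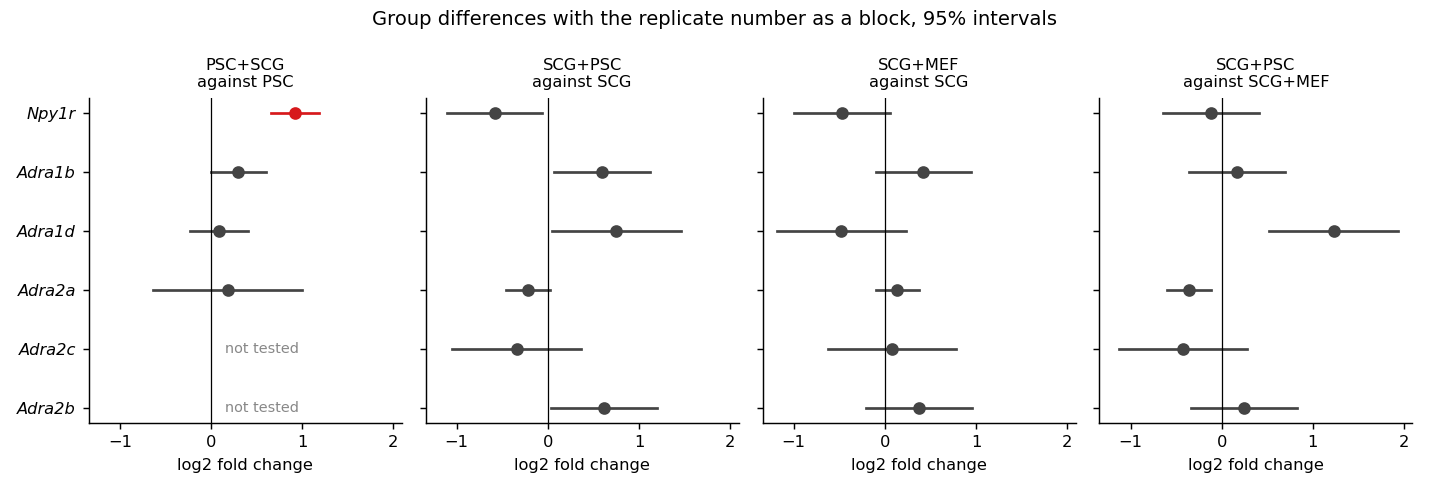
Log2 fold change (horizontal axis) with its 95% interval for the 6 receptors with a mean normalized count over 10 in a compared group, from limma with the replicate number as a block, 1 panel for each comparison. The red point is Npy1r in PSC+SCG against PSC, the 1 call, and grey text marks the 2 genes not tested in PSCs.

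Other receptors for transmitters released with noradrenaline, 26 genes for neuropeptide Y, ATP, adenosine and dopamine, held 1 gene called in ganglia. Of the 26, 22 were tested there. Limma with the block called 1 in SCG+PSC against SCG and against SCG+MEF, beside 1.33% and 0.788% of 23491 genes. Unadjusted limma p values under 0.05 were found for 4 genes without the block and 7 with it in SCG+PSC against SCG. The counts were 1 and 3 in SCG+MEF against SCG, and 2 and 5 in SCG+PSC against SCG+MEF. P2rx7, an ATP-gated ion channel known from macrophages and glia, had normalized counts of 729, 861 and 547 in SCG, 663, 854 and 538 in SCG+MEF and 929, 1273, 955 and 1053 in SCG+PSC. Every SCG+PSC library lies above all SCG and SCG+MEF libraries. Over replicates 1 to 3, SCG+PSC lay wholly above SCG for 995 of the 23491 genes tested, and wholly above SCG+MEF for 915. P2rx7 was higher by 0.57 on the log2 scale than in SCG (limma adjusted p = 0.0162 with the block) and by 0.63 than in SCG+MEF (limma adjusted p = 0.0227 with the block). It was not called without the block. Leaving out 1 library in turn under the block, P2rx7 was called in 2 of 6 fits against SCG and in 3 of 6 against SCG+MEF. Against SCG, the call was lost without each of SCG replicates 1, 2 and 3 and SCG+PSC replicate 3 (limma adjusted p = 0.0517, 0.0603, 0.109 and 0.0514). Against SCG+MEF, it was lost without SCG+MEF replicates 1 and 3 and SCG+PSC replicate 1 (limma adjusted p = 0.231, 0.187 and 0.0681). Mrc1, a macrophage marker, was also higher in SCG+PSC than in SCG with the block (log2 fold change 1.15, adjusted p = 0.00999), though not without SCG replicate 1 or 3 (limma adjusted p = 0.0659 and 0.0827), while the 10 macrophage markers summed to 7327 to 11282 normalized counts in SCG, 7891 to 11020 in SCG+MEF and 7856 to 9618 in SCG+PSC, ranges that overlap. The part of macrophage content in the P2rx7 difference was not tested. In PSCs, 14 of these 26 genes were tested and 0 were called by limma with or without the block, with 0 and 3 at an unadjusted p under 0.05. P2rx4, P2rx7 and P2rx6 led there, at mean normalized counts of 1608, 1183 and 449.8. In the ganglia, P2rx4, P2rx7 and P2rx3 led, at 1313, 840.2 and 525.

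Genes that make, store and clear the transmitters were split between the cell types as the receptors were. In the ganglia, Dbh, the noradrenaline transporter Slc6a2 and Th led, at means of 36745, 31996 and 21970 normalized counts. In the PSCs, Maoa, which breaks down catecholamines, led at 4171, and Cyb561, the cytochrome b561 of secretory vesicles, was at 75.7. Of 14 genes, 9 were tested in PSCs and 14 in ganglia, and 0 were called by limma in any of the 4 comparisons with or without the block, with at most 1 and 4 at an unadjusted p under 0.05. Npy, the ligand of the Y1 receptor, was at 0 in the 3 PSC libraries and had 675, 320 and 1024 normalized counts in SCG.

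The machinery beneath the receptors was present on both sides. Of 28 G protein and effector genes, 24 had a mean normalized count over 10 in PSC and all 28 in SCG. Gnas, the Gs alpha subunit, led in both tables, at a mean of 35728 in PSC libraries, followed by Prkar1a, a regulatory subunit of protein kinase A, at 18578 and Gnai2, a Gi alpha subunit, at 15386. In the ganglia, Prkar1a was at 20536 and Gnai2 at 16946. The 15 genes that end receptor and cyclic AMP signals were led by the receptor kinases Grk6 and Grk2 and the phosphodiesterase Pde4b in PSCs, at 5092, 4499 and 3028, and by Rgs4, Arrb1 and Grk2 in ganglia, at 6059, 5905 and 4222. The 10 transcripts known to respond to cyclic AMP were led by Junb, Per1 and Sik1 in PSCs, at 1915, 1764 and 1337, and by Junb, Fos and Per1 in ganglia, at 2924, 1604 and 1151.

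None of these 3 lists held a gene that limma called in any of the 4 comparisons, with or without the block. At an unadjusted p under 0.05, each list held at most 1 gene in a comparison without the block and at most 4 with it. In PSC+SCG against PSC, their median log2 fold changes were 0.07 for G proteins and effectors, 0.11 for signal termination and 0.03 for cyclic AMP-responsive transcripts, beside -0.0077 over all 21273 genes. In SCG+PSC against SCG, the same 3 medians were -0.05, -0.02 and -0.04.

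The genes most like a member across libraries, by Pearson r of log2(normalized count + 1), are given as a description over points that share batches and depth. Over the 6 PSC libraries, Npy1r was most like Gprc5b (r = 0.988), Tor4a (0.981) and Synpo2 (0.980), and Adra1b was most like Rnf166 (0.981), Sil1 (0.976) and Tmem37 (0.965). Over the 10 ganglion libraries, Adra2a was most like Dlg2 (0.989), Prkcz (0.989) and Cadps (0.988), which are all known in neurons, and Adra2c was most like Il17rd (0.976), Aagab (0.967) and Hmx1 (0.957). These come from 11666 and 12849 protein-coding genes with a mean of at least 50, where high r values arise among so many genes over few libraries.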

How the data were processed

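RNA was sequenced from 16 libraries, 6 of PSCs and 10 of ganglia, from stranded mRNA libraries. Per the submitters' notes, reads were aligned to GRCm39 with STAR 2.7.10b, and the authors counted reads per gene with the GENCODE M33 basic annotation. The deposited values are a signal: counts divided by DESeq2 1.38.3 size factors, fitted in each table separately. Whole reads were recovered in 14 libraries, with values taken as whole within 0.01 of a multiple, but not in PSC+SCG replicate 1 or SCG+PSC replicate 4. Genes summing to under 10 over the libraries of a fit were left out. limma 3.58.1 (R 4.3.3, trended variance) tested log2(normalized count + 1). The ganglion fit held 9 libraries, without SCG+PSC replicate 4. edgeR 4.0.16 and DESeq2 1.42.0 were run on recovered ganglion reads. The study modelled batch dates that are tied to no library, so the replicate block stands in for them. Same-numbered libraries deviated together (r from 0.567 to 0.823 over 3 PSC pairs and from 0.376 to 0.762 over 9 ganglion pairs, each matching its own number best), so the numbers pair the samples by this check of the data.

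TPM used exon unions from GENCODE M39 (GRCm39), with lengths for 56323 of 56941 genes. On simulated counts for SCG+MEF against SCG, limma recovered 190 of 200 genes changed by a log2 fold of 1. The simulated counts had the same fixed spread for every gene and no replicate effect, and only well-expressed genes were changed. That recovery therefore does not measure the power to call a receptor in the real libraries. Members and gene lists were chosen with earlier results of these data known. Named genes are all members, list genes called in a comparison, the 3 leading genes of each list and the 3 genes most like each of the 2 leading members of a table. Some genes that this rule names are not reported here.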

Additional observations from a re-analysis of the deposited data

Results flagged for a closer look

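For Npy1r, all 3 PSC pairs were higher in PSC+SCG (log2 fold change 0.92), and all 3 ganglion pairs were lower in SCG+PSC (-0.59) and in SCG+MEF (-0.47). The ganglion differences were not called (limma adjusted p = 1 in both without the block, and 0.394 and 0.710 with it). The difference between the cell types was not tested, since the tables were normalized separately. In the SCG+PSC group, 1 library lies far from the other 3 for Adra1d, replicate 2 at 114 normalized counts, and for Adrb3, again replicate 2, at 6.08. Replicate 2 was the highest library for both genes in SCG (67.5 and 3.81) and SCG+MEF (78.0 and 7.01) too. Chance marks about 1 in 20 groups of 4 in this way, and 9 genes were examined.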

How the results depend on the processing

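The replicate block changed 1 call among the receptors, that of Npy1r in PSC+SCG against PSC. The count of receptors called there was 0 without the block and 1 with it, 1 with the block and replicates 3 each in a block of their own (log2 fold change 1.06, limma adjusted p = 3.5e-11), and 1 in each fit that left out 1 library under the block (lowest 1, highest 1, from 3 distinct estimates). With replicates 3 in blocks of their own, neither enters the difference. That fit rests on replicates 1 and 2 only and repeats the estimate without pair 3, so its low adjusted p is not further evidence. The leave-outs under the block were added after seeing the data. The replicate block changed no other call. Other pseudocounts, filters, quantile normalization, adjusted p alone, the 2 groups alone, all 4 SCG+PSC libraries, edgeR and DESeq2 called 0 receptors in each of the comparisons they were run on, and the adjusted p of Npy1r in PSCs reached 0.9999 over them. For the PSC table, edgeR and DESeq2 were not run. The cause of each change was not tested.

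Directions that turned were of differences that were not called. Adra1d in PSC+SCG against PSC was -0.13 with replicates 3 in blocks of their own. Adra2c in SCG+MEF against SCG was -0.19 by edgeR, -0.20 by DESeq2 and -0.026 by edgeR with the replicate block. Leaving out 1 library in turn, with and without the block, gave log2 fold changes in PSC+SCG against PSC from -0.16 to 0.33 for Adra1d and from -0.20 to 0.58 for Adra2a. In SCG+PSC against SCG they ran from -0.017 to 0.98 for Adra1b, from -0.55 to 0.092 for Adra2a and from -0.94 to 0.25 for Adra2c. In SCG+MEF against SCG they ran from -0.19 to 0.91 for Adra1b, from -1.37 to 0.11 for Adra1d, from -0.19 to 0.45 for Adra2a and from -0.51 to 0.67 for Adra2c. In SCG+PSC against SCG+MEF they ran from -0.32 to 0.48 for Adra1b and from -0.13 to 0.45 for Adra2b.

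Over all genes, calls in PSC+SCG against PSC went from 0 to 98 with the block and to 490 with replicates 3 apart. In SCG+PSC against SCG, they went from 3 to 313 with the block, 59 by DESeq2, 327 by edgeR with the block, 8 with all 4 SCG+PSC libraries and 1 with the 2 groups alone. In SCG+MEF against SCG, they went from 3 to 38, 22 by DESeq2, 36 by edgeR with the block and 1 with the 2 groups alone, and in SCG+PSC against SCG+MEF from 0 to 185, 18 by DESeq2 and 212 by edgeR with the block. Leaving out 1 library under the block gave 39 to 470 calls in PSC+SCG against PSC, with 39 and 53 without PSC or PSC+SCG replicate 1 and 470 without either replicate 3. It gave 34 to 374 in SCG+PSC against SCG, with 34 and 80 without SCG replicates 3 and 1 and 126 without SCG+PSC replicate 1. In SCG+MEF against SCG it gave 5 to 51, with 16 and 9 without SCG replicates 1 and 3 and 14, 24 and 5 without SCG+MEF replicates 1, 2 and 3. It gave 0 to 301 in SCG+PSC against SCG+MEF, with 0 without SCG+MEF replicate 1 or 3 (2278 and 2276 genes at an unadjusted p under 0.05), 11 without SCG+PSC replicate 1 and 301 without replicate 2. Without the block, these fits gave 0, 1 to 2, 0 to 3 and 0 calls. Lengths of the longest transcript gave lower TPM, 13.4 for Npy1r in PSC and 39.6 for Adra2a in SCG, and the first 3 receptors of each group kept their order. Receptors of a few reads were beyond what this depth can compare.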
